A study of Mus musculus with 6 samples.

Results

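The expression of interferon gamma, of the receptor chains for interferons and of the Janus kinases (JAKs) was measured by RNA-Seq in mouse CD4+ T cells. The 9 genes were chosen by symbol, as the ligand gene *Ifng*, the 4 receptor chain genes *Ifngr1*, *Ifngr2*, *Ifnar1* and *Ifnar2*, and the 4 kinase genes *Jak1*, *Jak2*, *Jak3* and *Tyk2*, and they are 9 of the 24223 genes counted. There were 6 libraries, 2 each of naive CD4+ T cells (Naive), T helper 17 cells (Th17) and T helper 1 cells (Th1). The question was how these genes differ between Naive cells and the helper cells derived from them, and between both helper types.

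Cells of all groups came from C57BL/6 mice of 1 to 2 months of age, and no transgene or deletion is described. Naive cells were CD4+, CD62L+ and CD44- cells isolated with a kit from lymph nodes and spleens that had been pooled, and they were not activated. For Th17 and Th1, such cells were activated through CD3 and CD28 and polarized in culture for 5 days. Th1 medium held anti-IL-4 together with IL-12 and IL-2. Th17 medium held anti-IL-4 and anti-IFN-γ together with TGF-β, IL-6, IL-1β and IL-23. The differences between Naive and either helper type therefore cover activation, culture and polarization at once, and these cannot be told apart. No sort of the cells after culture is described, and stimulation with PMA and ionomycin is described only for cytokine staining. In that staining the study reports IFN-γ protein in a part of the Th1 cells and IL-17A in a part of the Th17 cells. The study calls the replicates independent and biological, whereas the labels give only replicate numbers, so that p-values measure the spread between these libraries.

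Interferon gamma (IFN-γ) is the signature cytokine of Th1 cells and activates macrophages against intracellular microbes. It binds a receptor made of the ligand-binding chain IFNGR1, with which the kinase JAK1 associates, and the chain IFNGR2, which brings JAK2. The kinases phosphorylate transcription factors of the STAT family, which enter the nucleus and switch on genes such as *Irf1* and those of the guanylate-binding proteins. Type I interferons (IFN-α and IFN-β) use another receptor, made of IFNAR1, which carries TYK2, and IFNAR2, which carries JAK1. JAK3 associates with the common γ chain of the receptors for IL-2, IL-7 and related cytokines. In T cells a low level of IFNGR2 is a known way in which Th1 cells become unresponsive to their own cytokine.

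The promoters of the 3 members that passed the test in at least 1 comparison are shown because their levels moved in opposite directions in Th1. *Ifng* lies on chromosome 10 from 118441046 to 118445892 and *Ifngr1* on chromosome 10 from 19591949 to 19610229, both on the plus strand of GRCm38, the assembly also called mm10. *Ifngr2* lies on chromosome 16 from 91547072 to 91565623, also on the plus strand. The sequences are the 250 bases before the start of each gene in RefSeq on GRCm38.p6, plus strand, written from 5′ to 3′. They span chr10:118440796-118441045 for *Ifng*, chr10:19591699-19591948 for *Ifngr1* and chr16:91546809-91547058 for *Ifngr2*. Capitals mark matches to TTCNNNGAA or TTCNNNNGAA, the spacings of sites bound by STAT proteins, and to GGTGTG, the core of sites bound by T-box factors such as T-bet, searched on both strands.
Ifng: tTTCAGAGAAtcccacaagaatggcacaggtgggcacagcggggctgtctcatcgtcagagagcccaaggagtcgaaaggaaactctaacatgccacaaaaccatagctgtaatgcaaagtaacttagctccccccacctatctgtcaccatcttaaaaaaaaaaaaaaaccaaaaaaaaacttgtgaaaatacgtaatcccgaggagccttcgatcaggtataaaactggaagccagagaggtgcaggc
Ifngr1: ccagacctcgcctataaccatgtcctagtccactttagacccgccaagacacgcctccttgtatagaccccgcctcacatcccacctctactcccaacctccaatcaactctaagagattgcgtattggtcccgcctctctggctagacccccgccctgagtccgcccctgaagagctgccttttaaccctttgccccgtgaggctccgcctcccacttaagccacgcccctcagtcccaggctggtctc
Ifngr2: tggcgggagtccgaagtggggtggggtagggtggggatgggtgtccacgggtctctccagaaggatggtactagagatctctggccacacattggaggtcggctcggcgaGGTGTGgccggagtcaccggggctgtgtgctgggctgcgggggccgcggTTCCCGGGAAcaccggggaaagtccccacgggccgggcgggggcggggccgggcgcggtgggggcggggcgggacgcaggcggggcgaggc

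The *Ifng* promoter held 1 match to TTCNNNGAA, from 249 to 241 bases before the start. That of *Ifngr2* held 1 match to TTCNNNNGAA, from 91 to 82 bases before the start, and 1 to GGTGTG, from 140 to 135 bases before it. None of the 3 patterns matched in the *Ifngr1* promoter. The promoter of *Ifnar2*, a member not called in any comparison, also held 2 kinds of match. These were TTCNNNGAA, from 214 to 206 bases before the start, and GGTGTG on the other strand, from 195 to 190 bases before it. The promoters of the remaining members held no match. Of all 32851 promoters in RefSeq, 7.02% held TTCNNNGAA, 5.85% held TTCNNNNGAA and 16.3% held GGTGTG, so that single matches are common. The promoters also differed in composition, with 45.2% G and C and 6 CpG dinucleotides for *Ifng*, 59.2% and 11 for *Ifngr1*, and 74% and 25 for *Ifngr2*, against medians of 52.4% and 6 over all promoters. The *Ifngr2* promoter lay above the 90th percentile of G and C content, 69.2%.

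Library totals ranged from 17742158 to 69080017 counts, replicate 1 of each group being the deeper. Levels are given as CPM, a gene's counts scaled to a common library total after edgeR's TMM adjustment, and 3 counts corresponded to 0.044 to 0.19 CPM. Differences were tested across all genes in 1 edgeR model, by its quasi-likelihood method, and a gene was called changed when its adjusted p-value was below 0.01 and its log2 fold change exceeded 1 in size. All 9 members were among the 13607 genes that passed the filter on low counts. For cell identity, 7 of 8 CD4 T cell markers were in the files, and their summed level was 3090 to 4263 CPM in the 6 libraries. The 5 Th17 markers summed to 1412 and 1877 CPM in Th17 and to at most 10.6 CPM elsewhere, and the 5 Th1 markers to 1848 and 1900 CPM in Th1, 350 and 362 CPM in Th17 and 128 and 130 CPM in Naive. Genes of naive T cells did not separate the groups, summing to 2560 to 4520 CPM over all 6 libraries. Myeloid markers, 9 of 10 in the files, ranged in sum from 208 to 347 CPM in Naive, from 2595 to 3158 CPM in Th17 and from 34.2 to 45.2 CPM in Th1, with *S100a9* at 0 in 1 Naive library. Their part in the differences that involve Th17 was not tested. Of the B cell markers 5 of 6 were in the files and summed to between 2.41 and 15.8 CPM, and of those of γδ T cells 2 of 7, at between 0.379 and 7.07 CPM.

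Between Th1 and Naive, *Ifng* and *Ifngr1* rose, *Ifngr2* fell and the other 6 members were not called. The 3 calls are 33.3% of the members, against 7.45% of all genes tested (4.64% up and 2.81% down). Between Th17 and Naive, 1 member was called, the rise of *Ifng*, which is 11.1% of the members against 5.43% of all genes tested (4.01% up and 1.43% down). Between Th1 and Th17, 2 members were called, *Ifng* higher and *Ifngr2* lower in Th1, or 22.2% of the members against 5.53% (2.7% up and 2.83% down). Thus in this edgeR model the ligand and its own receptor supplied every call among the 9 genes. No chain of the type I interferon receptor and no JAK passed both thresholds in any comparison. By DESeq2, an alternative method, *Ifngr1* and *Tyk2* also passed both in Th17 against Naive.

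**Figure D1:**
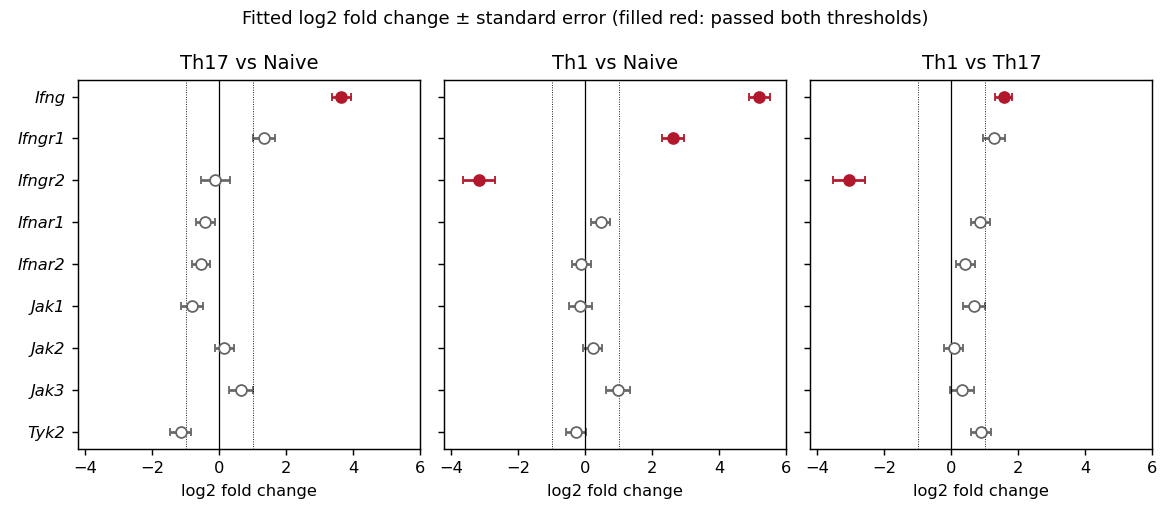
Fitted log2 fold change of each gene (x axis) with its standard error, for the 3 comparisons of cell types. Dotted lines mark a log2 fold change of 1 in either direction, and filled red points passed both thresholds. *Ifng* stands far to the right against Naive, *Ifngr2* far to the left in both Th1 comparisons, and *Ifnar1*, *Ifnar2* and the kinases lie between -1.15 and 0.98.

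*Ifng* was lowest in Naive cells and highest in Th1. It measured 4.55 CPM in both Naive libraries, from 310 and 92 counts. In Th17 it measured 64.6 and 48.7 CPM, and in Th1 177 and 157 CPM. The 3 groups did not overlap, and the ranking Naive, Th17, Th1 held for every pair of libraries. The means were 4.55 ± 0.00402 CPM, 56.7 ± 11.2 CPM and 167 ± 14.2 CPM (SD, n = 2 each). Against Naive, *Ifng* rose 36.6-fold in Th1 (log2 fold change 5.19, SE 0.31, edgeR adjusted p = 1.6e-05). In Th17, whose culture held an antibody to the protein, it rose 12.5-fold over Naive (log2 fold change 3.64, SE 0.29, edgeR adjusted p = 7.7e-05). Between both helper types Th1 was 2.94-fold higher (log2 fold change 1.56, SE 0.26, edgeR adjusted p = 0.0045). That last call was lost when any single Th17 or Th1 library was left out (adjusted p from 0.014 to 0.059) and when libraries were scaled by their totals alone (log2 fold change 1.34, adjusted p = 0.017), while the direction was kept.

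Markers of CD8 T cells and NK cells, which also make IFN-γ, were measured in the same libraries. The 2 genes of CD8 summed to between 5.66 and 11.3 CPM. The 8 NK markers summed to 32.6 and 16.5 CPM in Naive, 38.6 and 75.7 CPM in Th17 and 4.97 and 2.53 CPM in Th1. In Th17 the highest was *Tyrobp*, an adaptor shared with myeloid cells, at 33.8 and 67 CPM, and *Klri2*, an NK receptor gene, was at 2.19 and 5.26 CPM. Elsewhere *Klri2* was at 0.499 CPM in replicate 1 of Naive, at 0.681 CPM in replicate 1 of Th1 and at 0 in replicate 2 of both. *Klrb1c*, the highest NK marker in both Naive libraries, went the other way. It measured 17.4 and 11.2 CPM in Naive, 0.9485 and 1.19 CPM in Th17 and 0.17 and 0.126 CPM in Th1. The NK receptor genes *Klra4* and *Klra8* were at 0 in all 6 libraries, and *Ncr1* was at 0 in 1 Th17 and 1 Th1 library. The part of these cells in the level of *Ifng* was not tested. In bulk RNA, fewer cells that express a gene and less RNA per cell cannot be told apart. Of the *Ifng* exons, 20.6% of the bases are shared with the annotated *Gm49751* on the same strand, a symbol that is not among the counted genes.

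**Figure D2:**
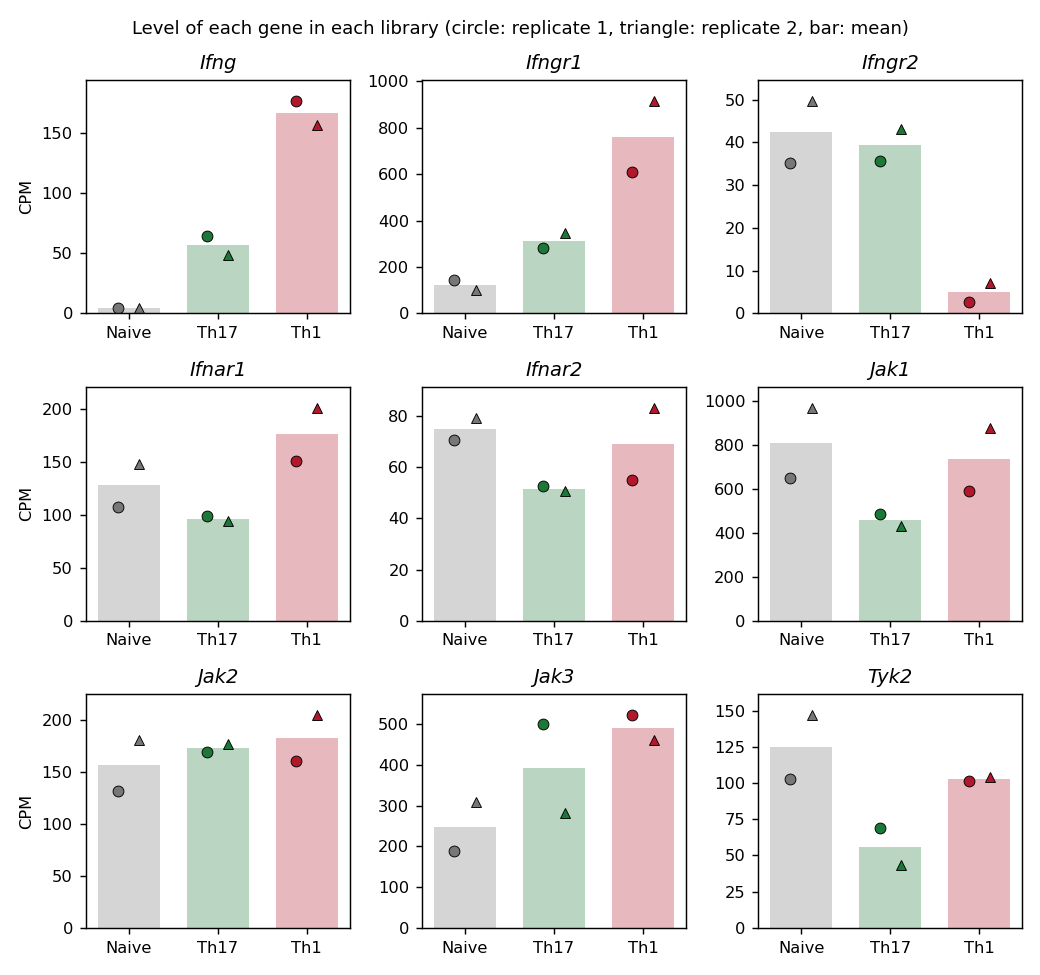
Level of the 9 genes in CPM (y axis, from 0) in each of the 6 libraries, with circles for replicate 1, triangles for replicate 2 and bars for the mean of a cell type. *Ifng* and *Ifngr1* step up from Naive to Th17 to Th1 without overlap of the libraries, and *Ifngr2* drops to 2.6 and 7.21 CPM in Th1. The other 6 genes were not called by edgeR in any comparison.

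*Ifngr1*, which encodes the chain that binds IFN-γ, was ordered like its ligand. It measured 144 and 103 CPM in Naive, 280 and 347 CPM in Th17 and 608.5 and 915 CPM in Th1. No library of one group reached the range of another. The means were 123.5 ± 29.4, 313 ± 47.4 and 762 ± 216 CPM (SD, n = 2 each). In Th1 it rose 6.16-fold over Naive (log2 fold change 2.62, SE 0.34, edgeR adjusted p = 9.3e-04). The step from Naive to Th17 was 2.54-fold (log2 fold change 1.34, SE 0.33) and missed the threshold in edgeR (adjusted p = 0.023), as did the 2.43-fold step from Th17 to Th1 (log2 fold change 1.28, SE 0.32, adjusted p = 0.027). DESeq2 called both of these steps, with adjusted p-values of 9.7e-04 and 0.0019.

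*Ifngr2*, which encodes the chain that recruits JAK2, was lower in Th1 than in both other cell types. It measured 35.3 and 49.7 CPM in the Naive libraries and 35.8 and 43 CPM in Th17, where the libraries of both groups overlapped. In Th1 it measured 2.6 and 7.21 CPM, from 168 and 114 counts, so that the low level did not rest on counts near 0. Both Th1 libraries lay far below all others. The means were 42.5 ± 10.2, 39.4 ± 5.16 and 4.9 ± 3.26 CPM (SD, n = 2 each). Against Naive, *Ifngr2* fell 8.92-fold in Th1 (log2 fold change -3.16, SE 0.47, edgeR adjusted p = 0.002). Against Th17 it fell 8.27-fold (log2 fold change -3.05, SE 0.47, edgeR adjusted p = 0.003). Between Th17 and Naive the log2 fold change was -0.11 (SE 0.43, adjusted p = 0.88). The Th1 libraries differed between themselves, so that the change from Naive was -2.52 without replicate 1 of Th1 and -4.02 without replicate 2, and that from Th17 was -2.45 and -3.91. The call against Th17 was lost without either Th17 library (log2 fold change -3.18 and -2.89, adjusted p = 0.012 and 0.011).

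The balance of both IFN-γ receptor chains was compared within each library. Dividing CPM by the exon length in kilobases (kb) gives levels that can be compared between genes. On this scale the level of *Ifngr1* was 7.18 and 3.63 times that of *Ifngr2* in the Naive libraries and 13.7 and 14.2 times in Th17. In Th1 the ratio was 411 and 223. The ranges of the 3 groups were separate, and the Th1 ratios exceeded the others in each library. The ratio itself was not tested, and the exact permutation of 2 and 2 libraries could not give a two-sided p-value below 0.333.

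**Figure D3:**
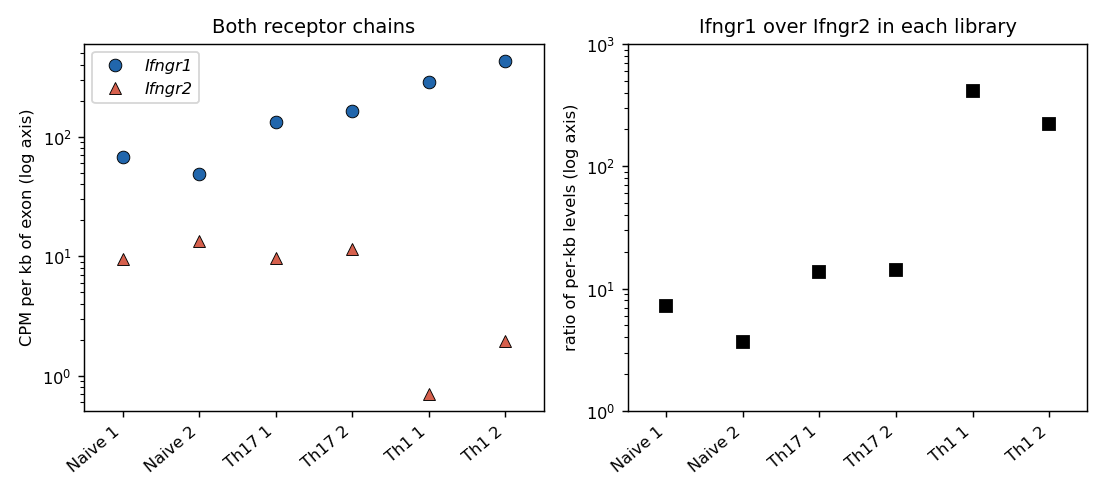
Left, level of *Ifngr1* (circles) and *Ifngr2* (triangles) in CPM per kb of exon on a log axis, for each library. Right, the ratio of *Ifngr1* to *Ifngr2* in the same libraries on a log axis, which runs from 3.63 in a Naive library to 411 in a Th1 library.

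Both chains of the receptor for type I interferons were expressed in every library. *Ifnar1* measured 107.5 and 148 CPM in Naive, 99.2 and 93.7 CPM in Th17 and 151 and 201 CPM in Th1. Its Th17 libraries lay below and its Th1 libraries above both Naive libraries, but the log2 fold changes from Naive were small, at -0.41 in Th17 (SE 0.28, edgeR adjusted p = 0.33) and 0.46 in Th1 (SE 0.28, edgeR adjusted p = 0.31). The difference between Th1 and Th17 was 0.87 on the log2 scale (SE 0.28, edgeR adjusted p = 0.061). *Ifnar2* measured 70.8 and 79.1 CPM in Naive, 52.6 and 50.6 CPM in Th17 and 54.9 and 83.1 CPM in Th1. Its Th17 libraries were the lowest and its Th1 libraries spanned those of Naive, with adjusted p-values from 0.2 to 0.82 in edgeR. Per kb, the ratio of *Ifnar1* to *Ifnar2* stayed between 1.23 and 2.23 over all 6 libraries, a far narrower span than that of the IFN-γ receptor chains. Of the *Ifnar2* exons, 315 bases, or 9.92%, are shared with the annotated *Gm21970* on the same strand.

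*Ifnar2*, *Ifnar1* and *Ifngr2* are neighbours on mouse chromosome 16, all transcribed from the plus strand, with *Il10rb*, the gene of a chain shared by the receptors for IL-10 and IFN-λ, between the first and the second. On GRCm38, *Ifnar2* spans 91372783 to 91405589, *Il10rb* begins 574 bases after it, *Ifnar1* spans 91485238 to 91507441, and *Ifngr2* begins 39630 bases after *Ifnar1*. Of these 4 genes, *Ifngr2* was the one called in Th1. *Il10rb* measured 39.8 and 38.5 CPM in Naive, 44.8 and 49.7 CPM in Th17 and 42.9 and 71.5 CPM in Th1, and its log2 fold change in Th1 was 0.55 (SE 0.3, edgeR adjusted p = 0.26).

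**Figure D4:**
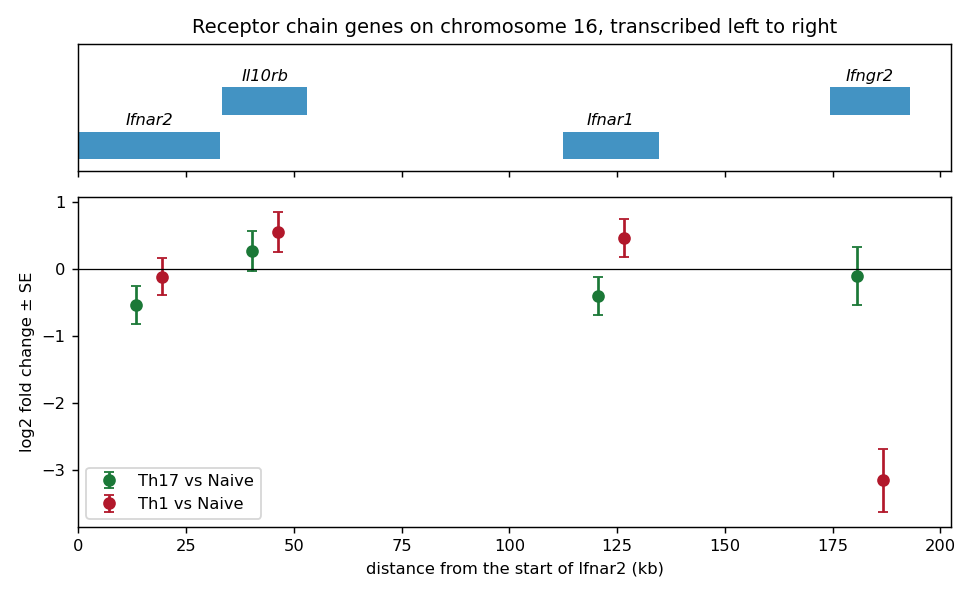
Top, the 4 neighbouring receptor chain genes drawn to scale by their distance in kb from the start of *Ifnar2*. Bottom, their log2 fold change from Naive with its standard error in Th17 (green) and Th1 (red); the Th1 point of *Ifngr2*, at -3.16, lies apart from the rest.

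None of the 4 kinases was called by edgeR in any comparison. *Jak1*, used by the receptors for both kinds of interferon, measured 651 and 967 CPM in Naive, 488 and 431 CPM in Th17 and 592 and 876 CPM in Th1. Its Th17 libraries were the lowest, with a log2 fold change from Naive of -0.82 (SE 0.33, edgeR adjusted p = 0.12). *Jak2*, the partner of IFNGR2, measured 131 and 181 CPM in Naive, 169 and 177 CPM in Th17 and 160 and 204 CPM in Th1. Its libraries overlapped in all 3 comparisons, and its differences from Naive, 0.15 in Th17 and 0.22 in Th1 on the log2 scale (SE 0.28 each), were smaller than their errors, the second turning to -0.04 with library totals alone. The gene of this kinase thus showed no detectable change where that of its receptor chain fell.

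*Jak3*, the kinase of the common γ chain, measured 188 and 309.5 CPM in Naive, 502 and 281 CPM in Th17 and 522 and 462 CPM in Th1. Both Th1 libraries lay above both Naive libraries, with a log2 fold change of 0.98 (SE 0.36, edgeR adjusted p = 0.097), whereas the Th17 libraries differed 1.78-fold between themselves and overlapped with Naive. The 3′ end of *Jak3* shares 404 bases, 9.05% of its exons, with *Insl3* on the same strand. *Tyk2*, the partner of IFNAR1, measured 103 and 147 CPM in Naive, 68.8 and 43.2 CPM in Th17 and 102 and 104 CPM in Th1. It was lowest in both Th17 libraries, 2.22-fold below Naive on average (log2 fold change -1.15, SE 0.31). That difference missed the threshold in edgeR (adjusted p = 0.032) and passed it in DESeq2 (adjusted p = 0.0083). Against Th17, *Tyk2* was 0.88 higher in Th1 on the log2 scale (SE 0.3, edgeR adjusted p = 0.075).

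*Jak1*, *Tyk2*, *Ifnar1* and *Ifnar2* were alike in that both Th17 libraries lay below all 4 other libraries. Library ranges without overlap were common in these data. They occurred for 6 of 9 members between Th17 and Naive (66.7%, against 65.5% of all genes tested), 5 of 9 between Th1 and Naive (55.6%, against 56%) and 7 of 9 between Th1 and Th17 (77.8%, against 66.6%). The share among the members was close to that of all genes in the first and the second comparison.

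Compared with each other per kb of exon, the members ranked differently in each cell type. In Naive cells *Jak1* was the highest, at a mean of 165 CPM per kb, followed by *Ifngr1* and *Jak3* at 58.5 and 55.7 CPM per kb, whose library ranges overlapped, and *Ifng* was the lowest at 3.77 CPM per kb. *Ifnar1* and *Jak2* overlapped at 32.7 and 31 CPM per kb, as did *Ifnar2* and *Tyk2* at 23.6 and 22.4 CPM per kb, above *Ifngr2* at 11.5 CPM per kb. In Th17 *Ifngr1* led at 148 CPM per kb, before *Jak1* and *Jak3* at 93.6 and 87.7 CPM per kb, which overlapped. *Ifng* came next at 46.9 CPM per kb, and *Ifngr2* and *Tyk2* overlapped at the foot of the order with 10.6 and 10.1 CPM per kb. In Th1 *Ifngr1* led at 361 CPM per kb, *Jak1* and *Ifng* overlapped at 150 and 138 CPM per kb, and *Ifngr2* was the lowest at 1.32 CPM per kb. The chain that was last in Th1 thus belonged to the same receptor as the chain that was first. The ratio of *Jak3* to *Jak1* per kb was 0.317 and 0.352 in Naive and between 0.579 and 1.13 in the 4 helper libraries.

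Of the transcription factors that JAKs activate or that act below interferon receptors, 10 genes of STATs and IRFs, none was called in Th17 against Naive or in Th1 against Th17. In Th1 against Naive 1 of 10 was called, *Stat4*, the STAT of IL-12 signalling, which rose from 46.9 and 64.7 CPM to 121 and 159 CPM (log2 fold change 1.33, SE 0.28, edgeR adjusted p = 0.00998). This call lay at the threshold and was lost whichever of the 6 libraries was left out, with log2 fold changes from 1.11 to 1.58. All 10 had a positive log2 fold change in both Th1 comparisons, with medians of 0.72 and 1.05 against -0.02 and -0.03 over all genes tested, and with library totals alone 7 of 10 and 10 of 10 did.

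Among 14 inhibitors of JAK-STAT signalling, the genes that changed were members of the SOCS family and *Usp18*. SOCS proteins bind JAKs or receptors and end their signals. In Th1 *Socs1*, *Socs2* and *Socs3* rose over Naive, 3 of 14 genes, where 4.64% of all genes tested were called up. *Socs1*, an inhibitor of the kinases below the IFN-γ receptor, measured 32.3 and 44.9 CPM in Naive, 80.9 and 64.1 CPM in Th17 and 209 and 312 CPM in Th1. It rose in Th1 both over Naive (log2 fold change 2.75, SE 0.32, edgeR adjusted p = 5.1e-04) and over Th17 (1.84, SE 0.31, edgeR adjusted p = 0.0045). In Th17 *Socs2* and *Socs3* rose over Naive, by 2.22 and 2.5 on the log2 scale (both edgeR adjusted p = 0.0018). In that comparison 4.01% of all genes tested were called up and 1.43% down. When a library was left out, these rises ran from 1.96 to 2.44 and from 2.2 to 2.87. That of *Socs1* over Th17 ran from 1.54 to 2.1. None of these calls was kept in every such fit. *Usp18*, an inhibitor that acts at IFNAR2, fell from 17.8 and 14.1 CPM in Naive to 1.76 and 2.54 CPM in Th17 (log2 fold change -2.91, SE 0.55, edgeR adjusted p = 0.0076) and measured 44.6 and 13.4 CPM in Th1. It was 3.78 higher in Th1 than in Th17 on the log2 scale (edgeR adjusted p = 0.0025), with 2.65 without replicate 1 of Th1 and 4.41 without replicate 2, and both of its calls were lost without either Th17 library, the one against Naive also without replicate 1 of Naive. The other 11, 11 and 12 inhibitors were not called in Th17 against Naive, Th1 against Naive and Th1 against Th17. In the last comparison 2 of 14 were called up, where 2.7% of all genes tested were called up and 2.83% down.

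Of 14 genes that control transcription of *Ifng*, 7 rose and none fell in Th1 against Naive, where 4.64% of all genes were called up and 2.81% down, with a median log2 fold change of 1.71 against -0.02 over all genes tested. *Tbx21*, which encodes T-bet, rose from 23.3 and 20.8 CPM in Naive to 138 and 159 CPM in Th1 (log2 fold change 2.75, SE 0.31, edgeR adjusted p = 4.6e-04). *Il12rb2*, the signalling chain of the IL-12 receptor, rose from 3.82 and 3.76 CPM to 338 and 281 CPM (log2 fold change 6.35, SE 0.37, edgeR adjusted p = 1.6e-05), and the IL-18 receptor genes *Il18r1* and *Il18rap* rose by 4.08 and 4.09 on the log2 scale. In Th17 against Naive 3 rose and 3 fell, where 4.01% of all genes were called up and 1.43% down. *Il18rap*, *Il18r1* and *Batf* rose by 2.22, 1.78 and 2.00 on the log2 scale, while *Tbx21* fell to 4.57 and 2.71 CPM (log2 fold change -2.57, edgeR adjusted p = 8.5e-04) and *Eomes*, a related T-box factor, fell from 17.4 and 23.3 CPM to 1.12 and 0.679 CPM (log2 fold change -4.44, edgeR adjusted p = 2.2e-04). *Ifng* itself rose in the same Th17 libraries. Bulk RNA does not show whether the cells with *Ifng* RNA were those low in *Tbx21* and *Eomes*. The part of these factors in the level of *Ifng* was not tested. Between Th1 and Th17, 6 of 14 were called higher in Th1 and none lower (2.7% and 2.83% of all genes), led by *Tbx21* (log2 fold change 5.31, SE 0.35, edgeR adjusted p = 7.5e-05). This count was 3 without replicate 1 of Th17 and the count against Naive was 4 without replicate 1 of Naive.

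Of 23 genes known to respond to IFN-γ, 8 were called up and none down in Th1 against Naive, where 4.64% of all genes were called up. Against Th17, 12 of 23 were called up and none down, where 2.7% of all genes were called up. In the latter comparison 21 of 23 had a positive log2 fold change, and *Ciita* and *Ido1* had negative ones (-2.7 and -3.95, edgeR adjusted p = 0.013 and 0.027). The guanylate-binding protein gene *Gbp2*, part of the defence against intracellular microbes, measured 43.5 and 48.1 CPM in Naive, 148 and 105 CPM in Th17 and 2423 and 3315 CPM in Th1 (log2 fold change from Naive 5.97, SE 0.4, edgeR adjusted p = 3.0e-05). The GTPase gene *Iigp1* measured 27.7 and 23.8 CPM in Naive, 14.8 and 10.8 CPM in Th17 and 273 and 213 CPM in Th1 (log2 fold change from Naive 3.23, SE 0.3, edgeR adjusted p = 1.6e-04). *Gbp3* and *Igtp* rose by 3.39 and 3.08 on the log2 scale over Naive and by 2.61 and 2.65 over Th17.

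The median of these 23 genes was 1.32 in Th1 against Naive and 1.84 in Th1 against Th17. With *Cxcl9* set to its bound and *Ido1* left out, because both were at or under 3 counts in Naive, 22 of 22 had a positive log2 fold change in Th1 against Naive and the median was 1.31. In Th17 against Naive the median was 0.33 and 2 genes were called. The first was *Ciita*, the master regulator of MHC class II genes (log2 fold change 3.11, SE 0.58, edgeR adjusted p = 0.0072). *Ciita* had 59 and 8 counts in Naive, and its value ran from 2.71 to 3.85 when a library was left out. The other was *Ido1*, which had 0 counts in both Naive libraries and 150 and 18 in Th17. Neither call was kept in every such fit. Both genes are also expressed by myeloid cells, whose markers had their highest sum in Th17, though not every marker was highest there. The call of 12 genes between Th1 and Th17 dropped to 5 without either Th17 library, to 7 without replicate 1 of Th1 and to 7 with library totals alone.

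**Figure D5:**
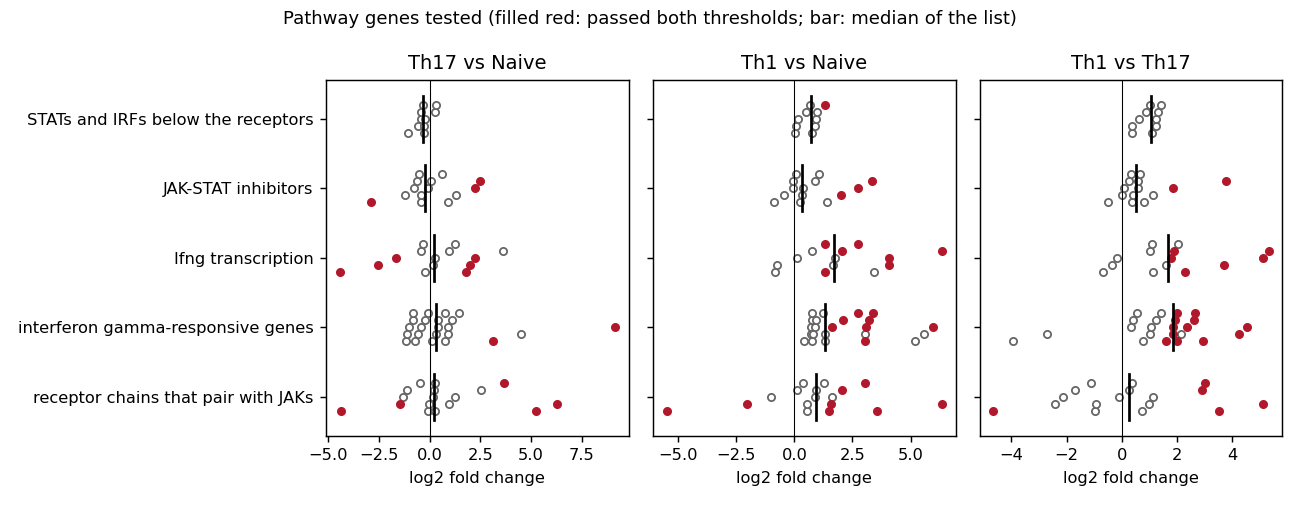
Log2 fold change (x axis) of each gene tested in 5 lists of the pathway, for the 3 comparisons; filled red points passed both thresholds and the bar is the median of a list. Among 23 IFN-γ-responsive genes the median is 0.33 in Th17 against Naive, 1.32 in Th1 against Naive and 1.84 in Th1 against Th17.

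Other receptor chains that signal through the same kinases changed in both directions. Of 18 genes, 17 were tested, and 6 rose and 2 fell in Th1 against Naive, where 4.64% of all genes were called up and 2.81% down. Some of these, such as *Il12rb2*, were already counted above among the genes that control transcription of *Ifng*. *Il2rb*, the chain of the IL-2 receptor that works with JAK1, rose from 198 and 255 CPM in Naive to 1506 and 2207 CPM in Th1 (log2 fold change 3.03, SE 0.4, edgeR adjusted p = 9.9e-04). *Il6ra*, the ligand-binding chain of the IL-6 receptor, fell from 210 and 319 CPM to 51 and 79.3 CPM (log2 fold change -2.02, SE 0.35, edgeR adjusted p = 0.0043). In Th17 against Naive 3 rose and 2 fell (4.01% and 1.43% of all genes). *Il23r*, whose receptor uses JAK2 and TYK2, rose by 6.26 on the log2 scale (SE 0.83, edgeR adjusted p = 0.0013). *Csf2rb* and *Csf2rb2*, which work with JAK2 and are also expressed by myeloid cells, rose by 3.69 and 5.24. *Csf2rb2* was also called up in Th1 against Naive (log2 fold change 3.55, SE 0.57, edgeR adjusted p = 0.0028). That value ran from 2.58 to 4.11 when a library was left out, and the call was not kept every time. *Epor*, the JAK2-coupled erythropoietin receptor gene, fell in Th17 and Th1 (log2 fold change -4.37 and -5.50), and without replicate 1 of Naive these values were -2.1, which was not called, and -3.25. The 8 erythroid markers summed to 777 and 123 CPM in Naive and to between 2.24 and 10.2 CPM in the other 4 libraries. The 4 haemoglobin genes, each with a close copy among them, were listed at 0 throughout. The part of erythroid cells in the fall of *Epor* was not tested. Between Th1 and Th17, 4 were called higher in Th1 and 1 lower (2.7% and 2.83% of all genes). *Il10ra*, the ligand-binding chain of the IL-10 receptor, was the only one of the 17 called in opposite directions against Naive, at 31.8 and 39.6 CPM in Naive, 13.1 and 12.5 CPM in Th17 and 85.3 and 118 CPM in Th1 (log2 fold change -1.48 and 1.51, edgeR adjusted p = 0.0085 and 0.0058). When a library was left out, these values ran from -1.63 to -1.32 and from 1.26 to 1.77. Both directions held, but neither call was kept in every such fit.

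Ligand genes for the type I and type III receptors had few counts. The 20 genes of IFN-α, IFN-β, IFN-λ and related interferons summed to between 0 and 31 counts per library, and none of the 20 was tested. The highest single count was 12, for *Ifna2* in replicate 1 of Th1. Many of these genes are close copies of each other, and by its defaults HTSeq does not count reads that map to several places, so that a low count does not show that a gene was silent. *Ifnlr1*, the specific chain of the IFN-λ receptor, was low but differed between groups, with 6 and 1 counts in the Naive libraries, 75 and 29 counts in Th17 and 4 and 1 counts in Th1. It was called higher in Th17 than in Naive (log2 fold change 4.14, SE 0.78, edgeR adjusted p = 0.0079) and lower in Th1 than in Th17 (-4.41, SE 0.82, edgeR adjusted p = 0.0074). The first of these calls was lost whichever library was left out, and the other was lost without any Th17 or Th1 library.

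Leaving out each library in turn changed no direction among the 17, 23 and 24 list genes called in Th17 against Naive, Th1 against Naive and Th1 against Th17. Of these calls 7, 12 and 11 passed both thresholds every time, among them *Tbx21* in all 3 comparisons, and *Gbp2*, *Gbp3*, *Igtp* and *Iigp1* in both Th1 comparisons.

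The genes most like each member were sought by Pearson's r of log2 CPM over the 6 libraries, among 8839 genes with a mean of at least 10 CPM. These values describe patterns over 3 cell types with 2 libraries each, in which many genes are necessarily alike, and carry no p-value. *Ifng* was most like *Pkm*, which encodes a pyruvate kinase of glycolysis, and *Egln3*, which encodes an oxygen-dependent prolyl hydroxylase, both at an r of 0.997. *Egln3* measured 7.88 and 8.56 CPM in Naive, 161 and 121 CPM in Th17 and 345 and 423 CPM in Th1. *Ifngr2* was most like *Tspan32* (r = 0.997) and *Cd1d1* (r = 0.995), a gene of lipid antigen presentation. *Tspan32*, a tetraspanin gene, measured 147 and 186 CPM in Naive, 154 and 199 CPM in Th17 and 16.8 and 45.5 CPM in Th1. Its level also dropped in Th1, though by a smaller factor, with the same order of the Th1 libraries. *Ifngr1* was most like the nonagouti gene *a*, which encodes agouti signalling protein, and *Ap2s1*, which encodes a subunit of a clathrin adaptor (both r = 0.997). The nonagouti gene had 6 and 0 counts in Naive, 75 and 33 counts in Th17 and 1508 and 944 counts in Th1. *Ifnar1* was most like *Sh3kbp1* (r = 0.995), *Ifnar2* like *Ganc* (r = 0.989) and *Jak1* like *Tcf20* (r = 0.9975). *Tyk2* had the closest match of all, *Setd1b*, a histone methyltransferase gene (r = 0.999), which measured 119 and 205 CPM in Naive, 68.2 and 36.1 CPM in Th17 and 117 and 119 CPM in Th1. The best matches of *Jak2* and *Jak3* were lower, at 0.974 for *Prkacb* and 0.977 for *Rhbdf2*.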

How the data were processed

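The authors deposited raw read counts per gene, 1 set of counts for each of 6 RNA-Seq libraries, without normalization. The submitters' processing notes name HISAT2 2.2.1, HTSeq 0.13.5, StringTie 2.1.7, DESeq2 1.34.0 and the build mm10. According to the methods, duplicate reads were discarded and HTSeq ran on its defaults, whereas the supplementary code holds no step for duplicates and runs HTSeq for reverse-stranded libraries, so that the strand setting behind genes with a neighbour on the other strand is uncertain. Sequenced reads are not independent molecules, so depth covers counting error only.

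Analysis of the counts used edgeR 4.0.16 and limma 3.58.1 under R 4.3.3. Of 24223 genes, 6377 had 0 counts in all libraries and 13607 passed filterByExpr. TMM factors were 0.862 to 1.09. Each pair of cell types was compared by the quasi-likelihood F-test with cell type as the only term, without the replicate number, since the study's methods name no covariate. The thresholds, an adjusted p-value (Benjamini-Hochberg over all genes tested) below 0.01 and a log2 fold change beyond 1 in size, follow the methods of the study, and standard errors are the log2 fold change over the square root of F. Replicates differed by more than sampling noise, with chi-square values of 93.6 to 147 per degree of freedom and Pearson's r of 0.97 to 0.978. The model was tested on simulated data for Th1 against Naive, in which edgeR found, among 13607 genes, 100 of 100 genes changed by 3 and 73 of 100 changed by 1.5 on the log2 scale and called 2 unchanged genes. DESeq2 found 100 and 74 and called 6. Every simulated gene had the same dispersion, so these numbers hold for that setting and do not show the performance on these libraries.

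Exon lengths and positions came from GENCODE vM21 on GRCm38 and promoters from RefSeq on GRCm38.p6. A planned comparison of the JAK proteins was not made here. The members and the gene lists were chosen with earlier results of these data known. Some genes are in several lists, among them *Il12rb2*, *Socs1* and *Stat4*, so that the counts of the lists are not separate results. Named are all members, at most 5 genes per list and comparison (those called with the smallest adjusted p and more than 3 counts in every library of the higher group), at least the first of the 3 genes most like each member (log2 CPM with a prior count of 2), and the highest marker of other cell types. Some results are not reported here.

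The alternatives were DESeq2 1.42.0, RLE size factors, library totals alone, no filter, a minimum of 10 counts per library, a replicate block in edgeR and in DESeq2, a fit of the 4 libraries in question, counts thinned to the smallest total, a threshold of 0.05 and leaving out each library. Counts for 2 gene lists under these settings, and the omission of each library for every list gene called, were added after the data were seen.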

Additional observations from a re-analysis of the deposited data

Results flagged for a closer look

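For *Ifng* and *Ifngr2* the change from Naive differed between Th1 and Th17 by the test of the difference, and for *Ifnar1* the libraries of both moved in opposite directions without passing that test. For *Ifng*, which rose in both helper types, the difference of the changes was 1.56 on the log2 scale (edgeR adjusted p = 0.0045), with both Th1 libraries above both Th17 libraries. For *Ifngr2* it was -3.05 (edgeR adjusted p = 0.003), with both Th1 libraries below all 4 others. For *Ifnar1* both Th17 libraries lay below and both Th1 libraries above both Naive libraries, and the difference, 0.87 on the log2 scale, did not pass the threshold (edgeR adjusted p = 0.061). Because both changes share the Naive libraries, these differences are the comparisons of Th1 with Th17 given above and no separate evidence. Library ranges without overlap between Th1 and Th17 were found for 66.6% of all genes tested.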

How the results depend on the processing

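The call of *Ifng*, *Ifngr1* and *Ifngr2* in Th1 against Naive was kept under every alternative. In Th17 against Naive, where *Ifng* alone was called, 3 members were called by DESeq2, without a filter on low counts and at an adjusted p under 0.05 (*Ifng*, *Ifngr1* and *Tyk2*), and 2 by DESeq2 with the replicate block. In Th1 against Th17, where *Ifng* and *Ifngr2* were called, 1 member was called with library totals alone, with *Ifng* at 1.34 on the log2 scale, and between 0 and 2 when a library was left out, with *Ifng* at 1.37 to 1.77. Leaving out a library leaves 1 in its group, which is then assumed to vary like the others. Of 432 values of single members under alternatives, 403 kept their direction and side of the threshold, 11 passed it newly, 7 lost it and 11 changed sign. All that changed sign were uncalled. When a library was left out, the values ran from -0.34 to 0.15 for *Ifngr2* (0.03 without replicate 1 of Th17) and from -0.06 to 0.39 for *Jak2* in Th17 against Naive, from -0.44 to 0.19 for *Ifnar2*, from -0.44 to 0.17 for *Jak1* (0.15 without replicate 1 of Th1) and from -0.51 to 0 for *Tyk2* in Th1 against Naive, and from -0.1 to 0.23 for *Jak2* and from -0.02 to 0.8 for *Jak3* in Th1 against Th17. With library totals alone *Jak2* was at -0.04 in Th1 against Naive and -0.15 in Th1 against Th17. The causes were not tested.

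Library totals alone moved the median log2 fold change of all genes to -0.26 in Th1 against Naive and -0.24 in Th1 against Th17, and the calls from 631 up and 383 down to 399 and 363, and from 367 and 385 to 203 and 352. Over all genes, 739, 1014 and 752 calls (Th17 against Naive, Th1 against Naive, Th1 against Th17) became 1741, 1935 and 1829 by DESeq2, 2154, 2259 and 2232 without a filter, 2063, 2164 and 2112 at an adjusted p under 0.05, and 1537, 1797 and 1638 by DESeq2 with the block. With at least 10 counts in every library they were 369 and 442 in the first and the last, and without a library from 319 to 887, 516 to 939 and 266 to 1016. Calls among 23 IFN-γ-responsive genes ranged from 0 to 7, 6 to 13 and 5 to 17. Deviations from the group means correlated at -0.231, 0.168 and 0.0766 between groups. These values cannot settle whether libraries with the same replicate number were paired. The replicate block in edgeR gave 1035, 1402 and 1041 calls and changed no member's call (1, 3 and 2). At these depths the 20 ligand genes and *Ifnlr1* in Naive and Th1 were near the limit of 3 counts.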
